A study of Homo sapiens with 6 samples.

Results

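The genes considered here supply cysteine to the cell and make, recycle and break down glutathione. They are 10 of the 24960 genes in the count table, chosen by name with earlier results of these data known. The 10 are CBS, CTH, GCLC, GCLM, GSS, GSR, CHAC1, CHAC2, GGCT and OPLAH. They were followed in K562 cells, an established suspension line from a patient with chronic myeloid leukemia, which the labels give the tissue Bone and the disease leukemia. RNA was sequenced from 3 control libraries and from 3 libraries of cells given hyperoside, a plant flavonol glycoside, at 2 mM. The labels state no vehicle for the controls, no genetic change in either group and no time of treatment, and every library comes from this single line. The labels number the replicates but do not say that they came from separate cultures, so p-values here measure only the spread between these libraries, which may be technical. In bulk RNA, fewer cells of a type and less RNA per cell cannot be told apart.

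Each library held between 35613283 and 36754725 counts, and the TMM scaling factors lay between 0.957 and 1.03. All 10 K562 markers passed the filter on low counts, with the embryonic globin HBE1 at a mean of 4773 FPKM in control and 3605 FPKM in hyperoside libraries. Of these 10 markers edgeR called 4 lower, HBE1 among them, and 4 higher, beside 23.2% and 22.1% of all 15095 tested genes. Of 7 bone and stroma markers 4 passed, none with a mean above 0.613 FPKM in either group, and BGLAP, ALPL and SP7 did not pass. Of 6 lymphocyte markers 3 passed. Their summed level was 36.7 to 44.1 FPKM in control and 49.0 to 55.1 FPKM in hyperoside libraries, nearly all of it CD3D (mean 39.5 and 50.1 FPKM). The part of these transcripts in the results was not tested.

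Glutathione is a tripeptide of glutamate, cysteine and glycine and the main thiol antioxidant of the cell. Cysteine enters as cystine or is made from methionine-derived homocysteine by transsulfuration, in which CBS joins homocysteine to serine and CTH splits the cystathionine that results. Glutamate-cysteine ligase, built from the catalytic subunit GCLC and the modifier subunit GCLM, takes the rate-limiting step of synthesis, GSS adds glycine, and GSR returns oxidized glutathione to its reduced form with NADPH. Inside the cell CHAC1 and CHAC2 cleave glutathione to 5-oxoproline and cysteinylglycine, GGCT releases 5-oxoproline from gamma-glutamyl amino acids, and OPLAH opens 5-oxoproline to glutamate. In leukemia cells as in others, this pathway feeds the peroxidase GPX4, which removes lipid peroxides.

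Promoter windows are given for the paralogs CHAC1 and CHAC2, whose transcripts moved very differently, and for the ligase subunits GCLC and GCLM, which both fell. Each runs from 250 bases before to 50 bases after a RefSeq start (GRCh38.p14), read 5′ to 3′ on the gene's strand. They are chr15:40953221-40953520 on the plus strand for CHAC1, chr2:53767533-53767832 on the plus strand for CHAC2, chr6:53545052-53545351 on the minus strand for GCLC and chr1:93909381-93909680 on the minus strand for GCLM. Capitals mark matches to TGATGNAA, the core of the amino acid response element, or to TGACNNNGC, the core of the antioxidant response element, on either strand.
CHAC1: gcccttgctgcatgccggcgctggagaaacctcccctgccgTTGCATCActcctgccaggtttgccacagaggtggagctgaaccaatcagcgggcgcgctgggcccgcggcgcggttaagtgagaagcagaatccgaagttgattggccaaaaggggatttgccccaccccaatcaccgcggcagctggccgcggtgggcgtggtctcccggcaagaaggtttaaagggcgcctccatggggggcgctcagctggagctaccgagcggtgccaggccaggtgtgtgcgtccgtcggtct
CHAC2: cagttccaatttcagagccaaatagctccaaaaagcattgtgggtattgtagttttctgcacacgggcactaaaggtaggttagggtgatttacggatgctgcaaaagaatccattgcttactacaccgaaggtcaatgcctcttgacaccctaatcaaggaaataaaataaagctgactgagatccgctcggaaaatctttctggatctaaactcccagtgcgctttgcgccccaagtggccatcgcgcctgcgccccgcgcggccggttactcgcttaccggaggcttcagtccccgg
GCLC: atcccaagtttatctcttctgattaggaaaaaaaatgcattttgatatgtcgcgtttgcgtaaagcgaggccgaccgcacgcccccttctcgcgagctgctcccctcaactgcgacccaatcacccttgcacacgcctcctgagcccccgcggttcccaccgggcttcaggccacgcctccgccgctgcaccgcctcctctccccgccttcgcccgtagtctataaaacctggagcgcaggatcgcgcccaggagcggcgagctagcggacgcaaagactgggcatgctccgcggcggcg
GCLM: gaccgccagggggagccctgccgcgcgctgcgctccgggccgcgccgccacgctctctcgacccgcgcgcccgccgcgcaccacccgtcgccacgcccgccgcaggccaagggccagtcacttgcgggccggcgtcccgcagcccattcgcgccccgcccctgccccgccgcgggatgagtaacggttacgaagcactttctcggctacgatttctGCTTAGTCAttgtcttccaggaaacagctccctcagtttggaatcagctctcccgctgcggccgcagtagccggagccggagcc

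The CHAC1 window held TTGCATCA, a reverse-strand match to TGATGNAA, at -209 to -202 from the start, and the GCLM window held GCTTAGTCA, a reverse-strand match to TGACNNNGC, at -34 to -26. The CHAC2 and GCLC windows held neither set of letters. Overlap of the 2 matches with motifs other than those named here was not examined. Over the 9 windows of 6 of the genes, 1 held TGATGNAA, 2 held TGACNNNGC (GCLM and a CBS window with GCGCGGTCA at -83 to -75) and 0 held TGACGTCA, the cAMP response element. Among all 35116 RefSeq windows of this length the shares were 3.62%, 13.3% and 1.85%, respectively. A match describes the letters alone. GGCT, GSS, GSR and OPLAH had no entry among these windows.

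All 10 genes passed the filter on low counts, and 7 of them were lower in hyperoside libraries, as called by the quasi-likelihood test of edgeR with p-values adjusted over 15095 genes (Benjamini-Hochberg). This test called 45.3% of those 15095 genes in either direction, 23.2% as lower and 22.1% as higher. None of the 10 was called higher by edgeR or by DESeq2, and 0 were higher at an unadjusted p under 0.05, where 9 were lower, beside 25.6% higher and 26.5% lower of the 15095 genes at that p. CHAC1 and CTH were called lower with a change of more than 2-fold, as were 3.76% of the 15095 genes. None was called higher with a change of that size, as 6.43% of the 15095 were. In 8 of the 10 genes every hyperoside library lay below every control library, which held for 27.3% of the 15095 genes (27.1% lay apart the other way and 54.4% in either direction). On the log2 scale the 10 genes had a median of -0.35 and the 15095 genes a median of 0.00316. Values for single genes below are normalized CPM (counts scaled to library size), with fold changes given as log2 of hyperoside over control.

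**Figure D1:**
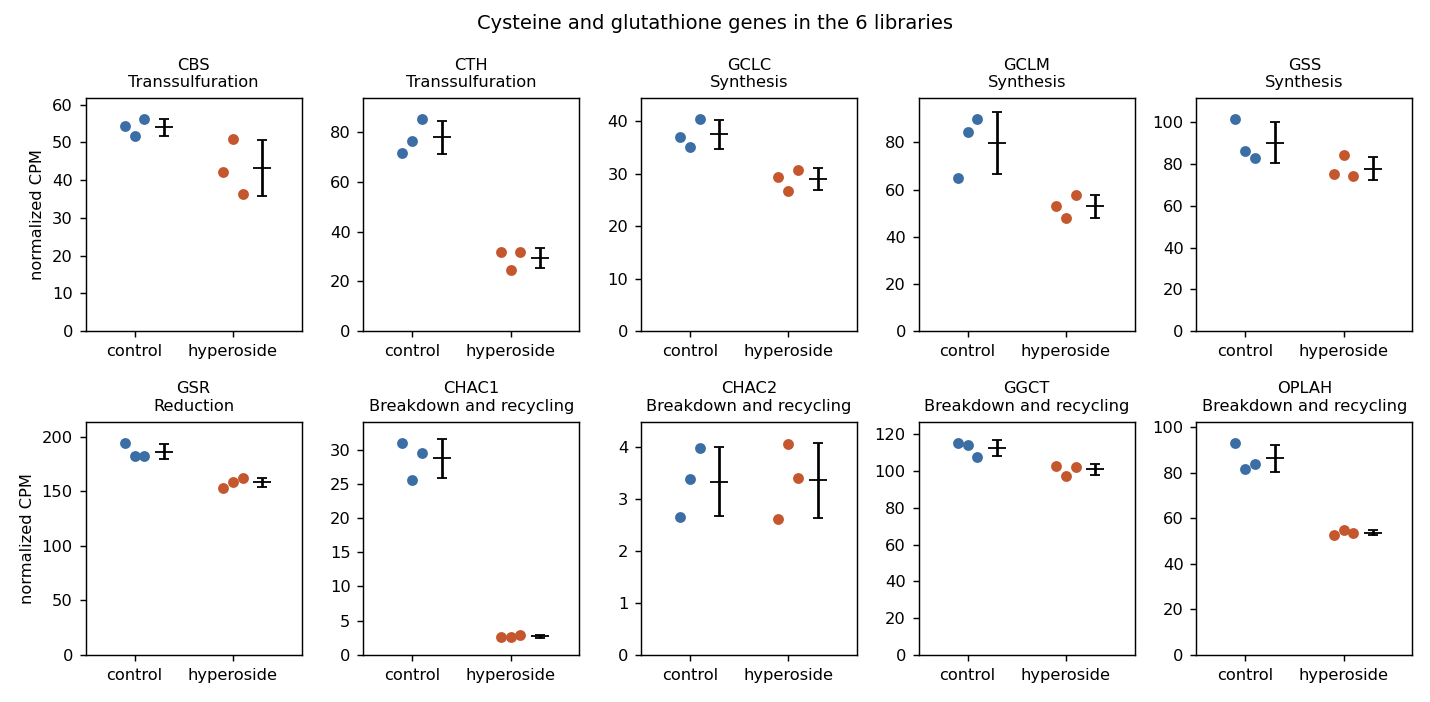
Normalized CPM (vertical axes, from 0) of each gene in 3 control and 3 hyperoside libraries, 1 point per library, with the mean and SD beside each group. CHAC1 stood at 25.6 to 31.0 CPM in control and 2.56 to 2.88 CPM in hyperoside libraries, while the CHAC2 points of the groups lie in the same range.

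CHAC1, the stress-inducible glutathione-degrading enzyme (chr15:40952962-40956519, plus strand, hg38), was the gene with the largest change of the 10. It stood at 31.0, 25.6 and 29.6 CPM in control libraries 1 to 3 and at 2.56, 2.64 and 2.88 CPM in hyperoside libraries 1 to 3. These are 1090, 900 and 1057 counts against 94, 97 and 104 counts. The groups were far apart, and the hyperoside libraries lay close together. The mean fell from 28.7 ± 2.82 to 2.69 ± 0.166 CPM (SD, n = 3 each), which is 9.38% of control, a log2 fold change of -3.41 with SE 0.13 (95% interval -3.69 to -3.13, adjusted p = 3.21e-12, edgeR). Ranked by log2 fold change, CHAC1 was 16 from the lowest of 15095 genes.

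CHAC2, its paralog (chr2:53767792-53775196, plus strand), which is thought to turn over glutathione at a slow and constant rate, had the lowest FPKM of the 10 genes in control libraries. Control libraries held 2.64, 3.38 and 3.97 CPM and hyperoside libraries 2.62, 4.06 and 3.41 CPM, from 93 to 149 counts each. The groups overlapped throughout. The log2 fold change was 0.01 with SE 0.24 (adjusted p = 0.974, edgeR), and its 95% interval ran from -0.49 to 0.51, so a change within these bounds was not detectable at this depth and spread. That interval shares no value with that of CHAC1. Within each library, the FPKM of CHAC1 over that of CHAC2 was 2.57, 1.66 and 1.63 in control and 0.215, 0.143 and 0.186 in hyperoside libraries. CHAC1 thus went from the higher to the lower of the pair in all 3 hyperoside libraries, also when CPM were divided by annotated exon length, where the ratio went from 5.72 ± 1.56 to 0.530 ± 0.106 (SD, n = 3 each). An exact two-sided permutation test on the FPKM ratio gave p = 0.1, the smallest that 3 against 3 libraries allow, and 0.15 after adjustment over the 3 gene pairs compared.

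CTH, which releases cysteine from cystathionine (chr1:70411218-70439851, plus strand), was the other gene that fell by more than 2-fold. It stood at 71.8, 76.6 and 85.2 CPM in control and at 32.0, 24.6 and 31.7 CPM in hyperoside libraries. Every hyperoside library lay well below every control, and library 2 was the lowest of them. The mean went from 77.9 ± 6.81 to 29.4 ± 4.19 CPM (SD, n = 3 each), or 37.8% of control, with a log2 fold change of -1.40, SE 0.10 (95% interval -1.62 to -1.18, adjusted p = 1.15e-08, edgeR).

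CBS, which forms cystathionine (chr21:43053191-43076943, minus strand), stood at 54.3, 51.7 and 56.2 CPM in control and at 42.3, 50.9 and 36.2 CPM in hyperoside libraries. The groups did not overlap, but hyperoside library 2 came close to control library 2. The log2 fold change was -0.32 with SE 0.11 (95% interval -0.55 to -0.10, adjusted p = 0.0181, edgeR), or 79.8% of control. This call was lost without hyperoside replicate 1 (adjusted p = 0.0687, edgeR) or replicate 3 (adjusted p = 0.156, edgeR) and in fits to FPKM. The FPKM of CTH over that of CBS was 1.01, 1.14 and 1.16 in control and 0.579, 0.370 and 0.670 in hyperoside libraries. Every hyperoside ratio lay below every control ratio (exact two-sided permutation p = 0.1, the smallest possible, and 0.15 over the 3 pairs). Per kilobase of annotated exon the ratio went from 4.05 ± 0.292 to 1.98 ± 0.565 (SD, n = 3 each), so which of the pair was the higher in hyperoside libraries depends on the gene length used.

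**Figure D2:**
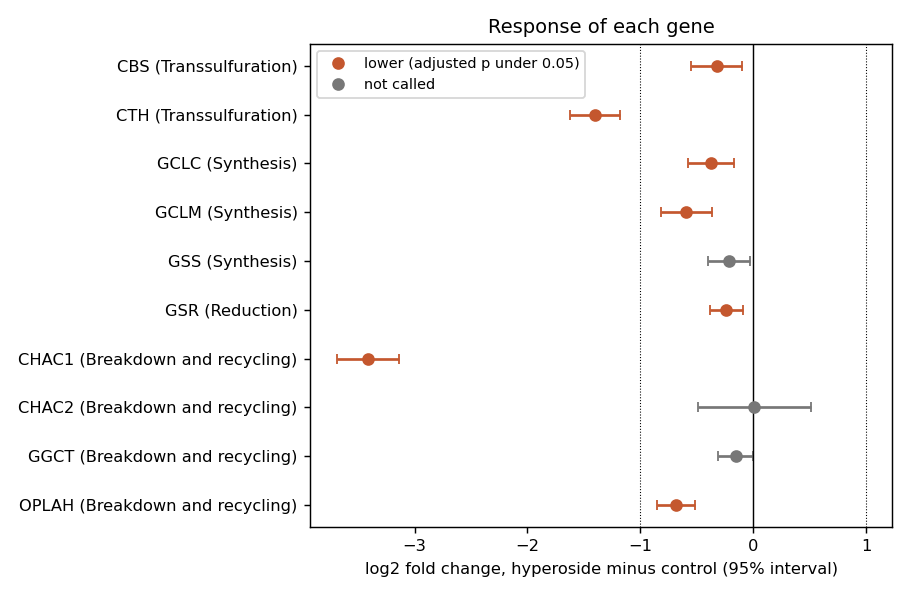
Log2 fold change of hyperoside over control (horizontal axis) for each of the 10 genes from edgeR with 95% intervals, where dotted lines mark 2-fold changes and colour marks the genes called lower. Intervals of CHAC1 and CTH lie below -1, the interval of CHAC2 spans 0 and that of GGCT ends at -0.00426.

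The counts of CBS are uncertain because the reference genome hg38 holds a near-identical copy at chr21:6444869-6468040 (minus strand). It is listed in the count table as LOC102724560, cystathionine beta-synthase like (CBSL). Whether the copy is a separate gene in these cells was not tested, and how reads matching both entries were counted is not stated. The copy held 53, 1038 and 60 counts in control and 435, 61 and 20 counts in hyperoside libraries. Control library 2 and hyperoside library 1 thus stood apart from the other 4. Of all counts on the 2 loci, the copy took 36.3% in control library 2 (95% exact binomial interval 34.6 to 38.1%) and 21.9% in hyperoside library 1 (20.1 to 23.8%), and between 1.5% and 3.16% in the rest. The intervals cover counting error only. With the 2 loci summed, control libraries held 55.8, 81.2 and 57.8 CPM and hyperoside libraries 54.1, 52.6 and 36.8 CPM. Control library 2 was then the highest and hyperoside library 3 the lowest. The summed log2 fold change was -0.44 with SE 0.14 (adjusted p = 0.0161, edgeR). Without control replicate 2 it was -0.25 (adjusted p = 0.144, edgeR), so the call on the summed locus was lost. Without hyperoside replicate 1 it was -0.54 (adjusted p = 0.0152, edgeR). The other 4 libraries were not left out of the summed counts, so whether the call also depends on them was not tested.

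**Figure D3:**
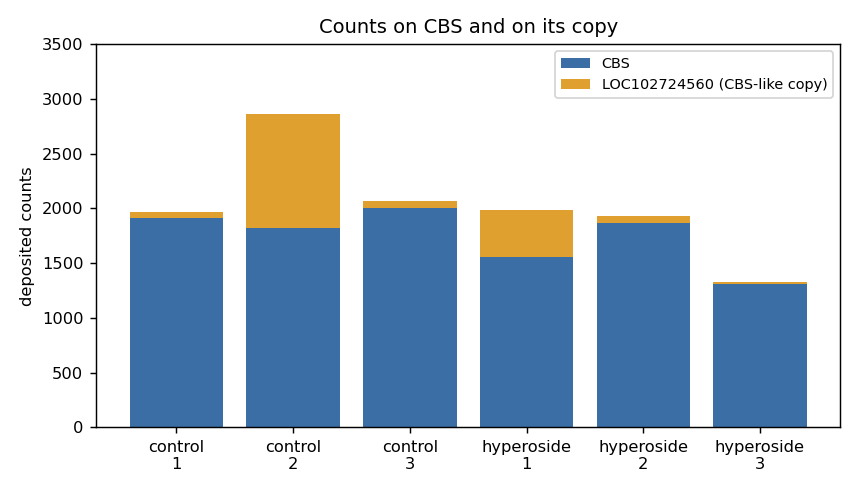
Counts on CBS and on its copy LOC102724560 in each of the 6 libraries, drawn as stacked bars from 0. The copy holds 1038 counts in control library 2 and 435 in hyperoside library 1, and 20 to 61 in each of the other 4.

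In the synthesis branch both subunits of glutamate-cysteine ligase fell. GCLC (chr6:53497341-53616970, minus strand), the catalytic subunit, stood at 36.9, 35.1 and 40.4 CPM in control and at 29.4, 26.7 and 30.8 CPM in hyperoside libraries. GCLM (chr1:93885205-93909456, minus strand), the modifier subunit, stood at 64.9, 84.6 and 89.8 CPM in control and at 52.8, 48.1 and 57.7 CPM in hyperoside libraries. The groups did not overlap for either gene, and control library 1 was low for GCLM. GCLC was at 77.2% of control, with a log2 fold change of -0.37 and SE 0.10 (95% interval -0.57 to -0.17, adjusted p = 0.00397, edgeR). GCLM was at 66.3% of control, with a log2 fold change of -0.59 and SE 0.11 (95% interval -0.82 to -0.37, adjusted p = 2.19e-04, edgeR). The FPKM of GCLC over that of GCLM was 0.952, 0.695 and 0.752 in control and 0.931, 0.927 and 0.893 in hyperoside libraries, so these ranges overlapped (exact two-sided permutation p = 0.4, also 0.4 over the 3 pairs). In GENCODE 29, GCLC shares exon bases with AL033397.1 on its own strand and with AL033397.2 on the other. No source says if these entries or strand were used in counting.

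GSS (chr20:34928433-34956027, minus strand), the synthase of the last step, stood at 101, 86.2 and 82.9 CPM in control and at 74.9, 84.2 and 74.0 CPM in hyperoside libraries. Hyperoside library 2 lay above control library 3, so the groups overlapped. The log2 fold change of -0.21 with SE 0.09 did not pass the threshold (95% interval -0.40 to -0.03, adjusted p = 0.0561, edgeR). It passed in 3 of the alternatives tried, at an adjusted p of 0.0492 with no filter on low counts and 0.0262 without control replicate 3 and 0.0389 without hyperoside replicate 2 (edgeR).

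GSR, the glutathione reductase, stood at 194, 182 and 182 CPM in control and at 153, 159 and 162 CPM in hyperoside libraries. The groups were apart by more than their spread. The mean was 84.8% of control, a log2 fold change of -0.24 with SE 0.07 (95% interval -0.38 to -0.09, adjusted p = 0.0095, edgeR). Without hyperoside replicate 1 the adjusted p was 0.0644 (edgeR).

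OPLAH, the 5-oxoprolinase that closes the cycle, stood at 93.2, 81.8 and 84.1 CPM in control and at 52.9, 54.9 and 53.4 CPM in hyperoside libraries. The hyperoside libraries lay close together and far below the controls. The mean was 62.2% of control, with a log2 fold change of -0.68 and SE 0.08 (95% interval -0.85 to -0.52, adjusted p = 2.13e-06, edgeR). OPLAH shares exon bases with SMPD5 on the opposite strand.

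GGCT (chr7:30496621-30504844, minus strand), the gamma-glutamylcyclotransferase upstream of OPLAH, stood at 115, 114 and 107 CPM in control and at 103, 97.3 and 102 CPM in hyperoside libraries. The groups did not overlap, yet the difference was small. The log2 fold change of -0.16 with SE 0.07 was not called (95% interval -0.31 to -0.00426, adjusted p = 0.0871, edgeR). GGCT shares exon bases with AC005154.5 on the same strand.

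Levels between genes were compared per length. By mean deposited FPKM in control libraries the order ran GGCT (84.0), GSR (60.3), GSS (29.6), OPLAH (19.5), CTH (16.1), CBS (14.5), GCLM (12.3), GCLC (9.65), CHAC1 (4.64) and CHAC2 (2.46). In hyperoside libraries GGCT (78.0), GSR (53.0), GSS (26.5) and OPLAH (12.6) led again, followed by CBS (12.0), GCLM (8.41), GCLC (7.71), CTH (6.27), CHAC2 (2.56) and CHAC1 (0.450). On this scale CTH went from rank 5 to rank 8 and CHAC1 from 9 to 10. Neighbours that differed by less than the larger of their SDs were CTH and CBS, and CBS and GCLM, in control libraries, and OPLAH and CBS, and GCLM and GCLC, in hyperoside libraries.

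The order depends on the gene length used. The length behind the deposited FPKM of CHAC1 was 6081 bases, which is more than the whole annotated gene (3558 bases) and 2.95 times its merged exons (2058 bases). That of CTH was 1.98 times its merged exons, that of GCLC 0.442 times and that of GSS 0.484 times, beside a median of 0.869 over 12637 genes, of which 7.08% lay above 1.5 times. Per kilobase of merged exon, control CTH had rank 3 of the 10 at 32.3 ± 2.82 CPM and CHAC1 rank 7 at 13.9 ± 1.37 CPM (SD, n = 3). After hyperoside they were at 12.2 ± 1.74 and 1.31 ± 0.0804 CPM per kilobase, where CTH had rank 4 and CHAC1 rank 10. GGCT and GSR were the highest pair on both scales in both groups.

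**Figure D4:**
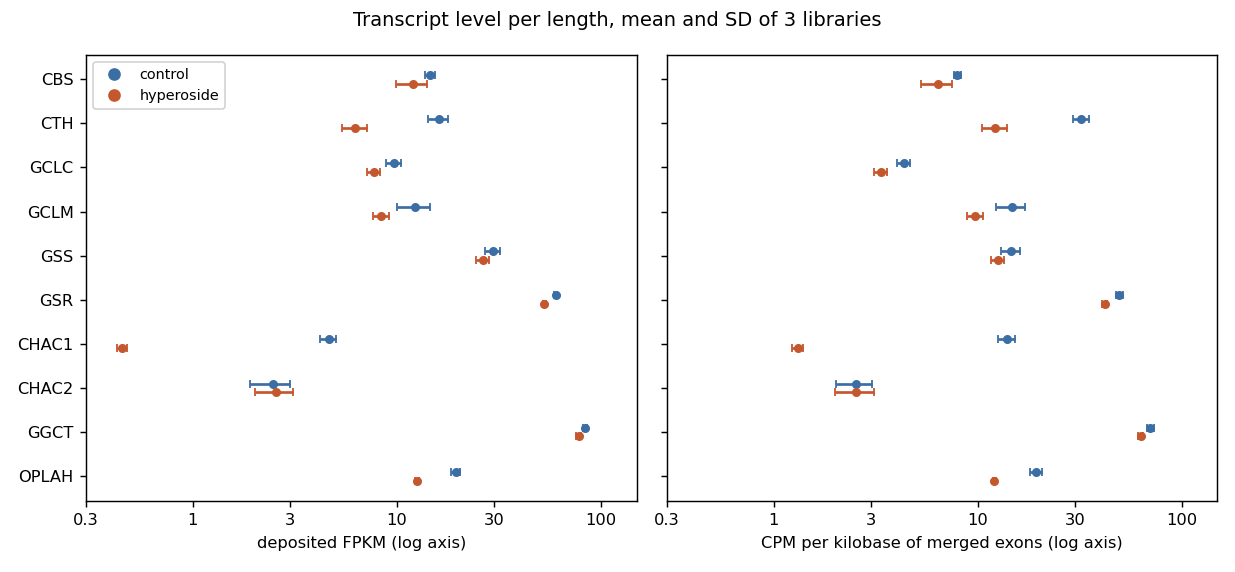
Mean level and SD of 3 libraries per group for each gene, as deposited FPKM (left) and as CPM per kilobase of merged exons (right), both on log axes. CHAC1 falls to the lowest level of the 10 on both scales (0.450 FPKM and 1.31 CPM per kilobase), while CTH in control has rank 5 by FPKM and rank 3 per kilobase of merged exons.

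For the 2 genes that fell by more than 2-fold, the genes with the most similar profile were found by the root mean square difference of centred log2 CPM over the 6 libraries. Nearest to CTH were PHGDH (0.0517), the first enzyme of serine synthesis, GRHL1 (0.0762) and AMN1 (0.0811), with log2 fold changes of -1.39, -1.52 and -1.46. Nearest to CHAC1 were STC2 (0.142), a secreted glycoprotein with a log2 fold change of -3.33, and the RNAs LINC00261 (0.155) and LOC105370119 (0.247). STC2 held 774, 636 and 965 counts in control and 72, 85 and 86 counts in hyperoside libraries. LINC00261 went from 39, 32 and 46 counts to 1, 2 and 2, and LOC105370119 from 19, 11 and 25 counts to 0 in every hyperoside library. Their log2 fold changes were -4.49 and -7.23, beside -3.41 for CHAC1. With 2 or fewer counts in each hyperoside library, the size of these 2 fold changes is poorly determined. For the profile differences, a prior count of 2 was added before taking logs, which shrinks differences at such low counts. The likeness of these 2 RNAs to CHAC1 thus depends on that prior count.

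Around these genes, 8 lists covered the rest of cysteine and glutathione metabolism. Of their 85 genes, 65 were tested, of which 19 were lower, 14 were higher and 32 were not called by edgeR, with a median log2 fold change of -0.06. These shares, 29.2% lower and 21.5% higher, lay near the 23.2% and 22.1% of the 15095 genes, against which each list's count below is also to be read. Cystine carriers were split, with 2 lower and 2 higher of 4 tested. SLC7A11, the light chain of the cystine-glutamate antiporter, stood at 76.9, 83.8 and 125 CPM in control and at 25.8, 28.2 and 22.9 CPM in hyperoside libraries. Its groups were well apart, control library 3 was the highest, and the log2 fold change was -1.90 (adjusted p = 1.19e-08, edgeR). SLC3A2, the heavy chain that carries it to the membrane, was instead higher at a log2 fold change of 0.30 (adjusted p = 0.00618, edgeR), a call lost without control replicate 2 (adjusted p = 0.053, edgeR). The lysosomal cystine exporter CTNS rose by 0.57, and MFSD12, which brings cysteine into lysosomes and melanosomes, fell by 0.37 on the log2 scale, a call lost without hyperoside replicate 1 (adjusted p = 0.0721, edgeR).

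Of 8 tested genes listed for the methionine cycle, which yields homocysteine, 2 were called, both lower. These were AHCYL1 (-0.60) and AHCYL2 (-0.49), relatives of the homocysteine-forming hydrolase AHCY, while AHCY (-0.19) and the methionine synthase MTR (-0.17) were not called. Of 10 tested genes that use cysteine 3 were lower and 2 higher. The aspartate aminotransferase GOT1 fell by 1.17, the sulfurtransferase MPST by 0.48 and CSAD, of taurine synthesis, by 0.50, and PPCS, of coenzyme A synthesis, rose by 0.67 on the log2 scale. Of 8 peptidases of glutathione and its dipeptides, 4 were higher and 1 was lower. ANPEP, which splits cysteinylglycine at the cell surface, rose from 11.2, 9.66 and 10.3 CPM to 22.1, 20.7 and 21.8 CPM, a log2 fold change of 1.05. The dipeptidase DPEP2 (1.01) and the cytosolic dipeptidase CNDP2 (0.22) were also higher and the transferase relative GGT7 (-0.57) was lower. The call on CNDP2 was lost without any 1 of 4 libraries, at an adjusted p of up to 0.147 (edgeR, without control replicate 2).

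Among glutathione transporters 2 of 6 were lower and 1 higher. SLC25A39, which imports glutathione into mitochondria, was at a log2 fold change of -0.79, ABCC5 at -0.28 and ABCC1, which exports glutathione conjugates, at 0.25, while ABCC4 (0.14) was not called. Of 14 glutathione transferases 2 were lower and 4 higher, with GSTZ1 at 0.55, GSTO2 at 0.60, GSTO1 at -0.30 and GSTP1 at -0.26. Of 6 glutaredoxin and glyoxalase genes 4 were called, all lower. These were GLRX5, of mitochondrial iron-sulfur cluster assembly (-0.70), HAGH, which regenerates glutathione from lactoylglutathione (-0.60), GLRX2 (-0.46) and GLRX (-0.34). Calls lost when 1 library was left out were those on ABCC1 (adjusted p = 0.0539 without control replicate 3), GSTP1 (0.0923 without hyperoside replicate 1) and GLRX (up to 0.187, without hyperoside replicate 2), all by edgeR. The fits to FPKM also lost GSTP1 (adjusted p = 0.0537 and 0.051, limma) and GLRX (0.0896 and 0.0803), and upper-quartile scaling lost GLRX (0.0652, edgeR). NADPH, the electron source of GSR, is supplied by 9 tested genes, of which 3 were lower and 1 higher. IDH1 fell by 0.91, ME1 by 0.59 and IDH2 by 0.39, and the transhydrogenase NNT rose by 0.41 on the log2 scale.

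**Figure D5:**
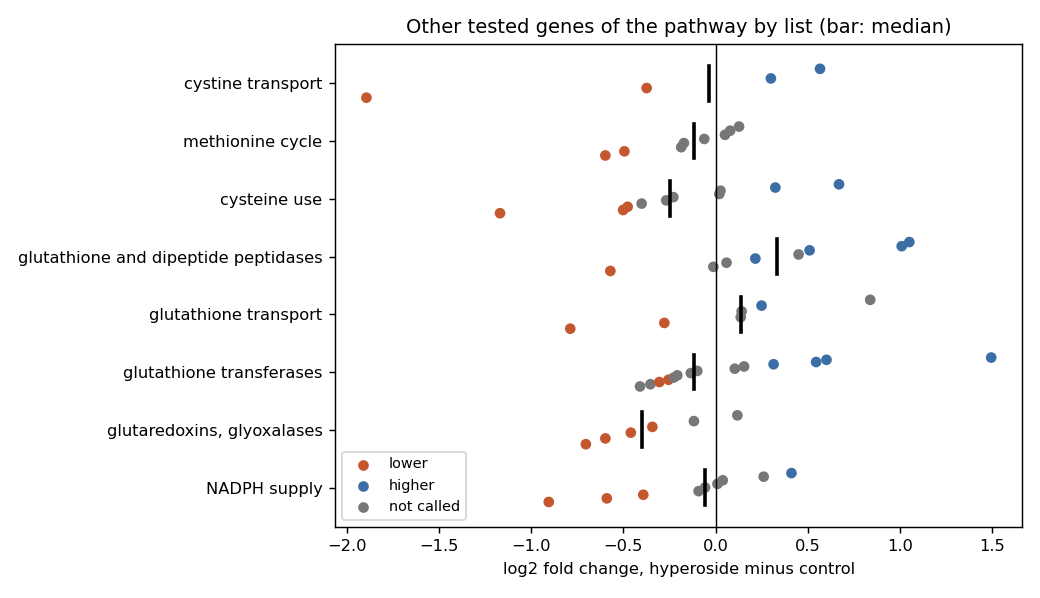
Log2 fold change of hyperoside over control (horizontal axis) for each of the 65 tested genes of the 8 further lists, 1 point per gene, coloured by its edgeR call (adjusted p under 0.05), with a bar at each list's median. Points lie on both sides of 0 in every list, and SLC7A11 at -1.90 is the leftmost of the cystine carriers.

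Of 5 regulators, stress factors DDIT3 (-1.30) and ATF4 (-0.72) and antioxidant factor NFE2L2 (-0.52) were lower (log2, edgeR), as were 23.2% of 15095 genes. KEAP1, which targets the NFE2L2 protein for degradation, was higher at 0.72, as were 22.1%, and the repressor BACH1 (0.09) was not called.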

How the data were processed

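The 3 control and 3 hyperoside libraries, from Trizol-extracted RNA, were run on an Illumina HiSeq instrument. The submitters' processing notes name fastp, HISAT2, HTSeq and hg38, without versions, and the annotation and use of strand are not given in the sources used here. The authors deposited raw counts per gene, not normalized, and FPKM values, made by scaling counts to gene length and library size. A single gene length accounted for the FPKM in all 6 libraries in 100% of 16173 genes, within 0.1%.

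Counts were filtered with filterByExpr (minimum count 10, minimum total 15), normalized by TMM and tested with the quasi-likelihood test of edgeR 4.0.16 in R 4.3.3, with the group as the only term. Adjusted p-values (Benjamini-Hochberg) cover all 15095 genes that passed, and a call needs an adjusted p under 0.05. Gene pairs were compared by an exact permutation test of log2 FPKM ratios. Fits with limma 3.58.1 used log2(FPKM + 1) and log2(FPKM + 0.1), whose fold changes are on that scale and understate changes of low genes. DESeq2 1.42.0, other scalings and filters, and leaving out each library were also tried. The code was tested on simulated data. Gene positions and exons are from GENCODE 29 and promoters from RefSeq (GRCh38.p14). Replicates of a group differed by more than sampling noise, with a chi-square per degree of freedom of 6.33 or more. Control library 1 stood apart, at 20.3 and 23.1 against control libraries 2 and 3, which gave the 6.33. Hyperoside pairs gave 7.25 to 13.1.

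All 10 genes are named. Of each further list the 4 tested genes with the smallest adjusted p are named, with SLC7A11, SLC3A2 and 5 regulators, and the 3 nearest profiles of each gene changed more than 2-fold. The genes and lists were chosen with earlier results of these data known.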

Additional observations from a re-analysis of the deposited data

How the results depend on the processing

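CHAC1, CTH, GCLC, GCLM and OPLAH were called lower and GGCT was not called in every setting tried, and the 2 genes past a 2-fold drop stayed at 2. The number of the 10 genes called lower ranged from 5 to 8 when 1 library was left out, was 8 with no filter and 6 in both FPKM fits, and 0 were higher throughout. CBS lost its call in limma-trend fits on log2(FPKM + 1) (log2 fold change -0.27, adjusted p = 0.0854) and log2(FPKM + 0.1) (-0.29, adjusted p = 0.0766) and without hyperoside replicate 1 or 3 (edgeR; leaving out 1 library gave -0.46 to -0.20 for CBS alone, and -0.54 to -0.25 with the counts of its copy added and control replicate 2 or hyperoside replicate 1 left out). Leaving out 1 library gave -0.26 to -0.20 for GSR, -0.28 to -0.12 for GSS, which was called at -0.21 with no filter, and -0.15 to 0.16 for CHAC2, which turned negative at -0.13 without control replicate 1 and at -0.15 without hyperoside replicate 2. BACH1 ranged from -0.043 (without control replicate 1) to 0.17, and the CBS copy LOC102724560, at -1.21 with all libraries, from -3.29 to 1.55 (without control replicate 2). The cause of these changes was not tested. Leaving out a library from the summed counts was chosen after seeing the data. Upper-quartile scaling moved the median of all genes by 0.0405 and the FPKM fits by up to 0.0497 on the log2 scale.

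Same-numbered libraries did not deviate together (r of -0.0810, -0.0327 and -0.0342), so the numbers are not taken as pairs. A fit with the replicate number as a block called 7 of the 10 genes lower, 19 lower and 12 higher of the 65 further pathway genes (14 higher without it), and 3103 genes lower and 3026 higher in all. CNDP2 lost its call under the block (0.22, adjusted p = 0.0782). With 93 to 149 counts per library, CHAC2 has the widest interval of the 10 genes.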
